A study of Rattus norvegicus with 30 samples.

Results

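The subject here is the spread of each gene's liver RNA level between animals of one group, compared between old and young rats. The group mean was removed from every gene's array signal, and the remaining variance among 14 old animals was set against that among 16 young animals. The comparison took in genes with a signal over log2 4 on at least 6 of the 30 arrays, which were 10869 of the 14217 genes that the array names. At the edge of that filter, the 86 probe sets over log2 4 on exactly 6 arrays had median standard deviations (SDs) of 0.388 in old and 0.227 in young animals. The 96 probe sets with 5 such arrays were left out, at medians of 0.350 and 0.206.

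All animals were male Fischer 344 rats, an inbred strain. The young control group held 8 animals of 3 months and the old control group 8 animals of 24 months, all on the purified AIN-93M diet. The young LA group (8 animals of 3 months) and the old LA group (6 animals of 24 months) ate the same diet with 0.2% by weight R-α-lipoic acid (LA), a dithiol cofactor of mitochondrial dehydrogenases. Every group was on the modified pair-feeding scheme for 2 weeks, so the controls shared it. RNA of the liver's median lobe was measured on 1 Affymetrix Rat Genome 230 2.0 array per animal. In the old LA group 2 animals died during feeding, so its 6 animals are the survivors.

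Animals of an inbred strain on one diet still differ in liver RNA. Hepatocyte genes under daily, feeding or hormonal control move with the state of each animal, and genes of immune, stromal and dividing cells move with the cells that a piece of tissue holds. In male rats, pulses of growth hormone keep a set of sex-dependent genes such as Cyp2c11 on. In whole tissue, fewer cells of a type and less RNA per cell cannot be told apart.

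Signals were on the log2 scale, and array medians lay between 5.20 and 5.46. A spread is given as an SD in log2 units, and its change with age as the ratio of the old to the young SD or as the log2 of the variance ratio, in which 2 units stand for a 4-fold variance. The standard error (SE) of the latter is a jackknife over animals. Genes were called more or less variable in old animals from a limma fit to the absolute deviations from the group means, at a Benjamini-Hochberg adjusted p under 0.05 over all 10869 genes. Hepatocyte markers were high in every animal: the mean signal of 17 measured markers of 20 listed was 15.35 to 15.56 in old and 15.43 to 15.55 in young animals.

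In each old group 1 animal stood apart, and results that rest on these animals are given with and without them. The mean absolute deviation over all genes was 0.747 log2 units in old control 5 and 0.498 in old LA 2. The other 12 old animals lay between 0.203 and 0.319. The median signal of both arrays was 5.46, and it lay between 5.20 and 5.37 on the other 28. The 3′ minus 5′ difference of the beta-actin control probe sets, which rises as RNA shortens, was 1.57 and 1.84 log2 units on these arrays. It was 1.95 to 2.48 in the other old and 1.89 to 2.09 in the young animals. The same difference for GAPDH was 0.22 and 0.19 on these arrays, 0.08 to 0.45 in the other old and 0.07 to 0.22 in the young animals, so both far animals lay within the range of the other old ones. The 18 hybridisation control probe sets, which carry spiked material, had a median log2 variance ratio of 0.81 between old and young arrays and the 24 polyA controls one of 0.22. The 6 beta-actin and GAPDH control probe sets, which measure the liver's own RNA, had one of 2.995. Whether array signal and RNA length had a part in the results was not tested.

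Most liver genes varied more among old than among young animals. The median SD over genes was 0.292 log2 units in old and 0.182 in young animals, the median SD ratio was 1.60, and the median log2 variance ratio was 1.35 (SE 0.50). The old SD was the larger in 9194 genes, or 84.6%. It was over 2 times the young SD in 3707 genes and under 0.5 times in 64. With limma, 1607 genes were more variable in old animals, which is 14.8% of those tested, and 31 were less variable, which is 0.285%. At an unadjusted p under 0.05 these counts were 3692 and 103. For 50 genes no young array was over log2 4, so they passed the filter through old animals alone, and 48 of them are among the 1607. Another 18 had no old array over log2 4, and 8 of them are among the 31. In these genes the filter and the floor of the signal fixed the direction, and their values are given as a description. Among the 1607 genes the median SD was 0.685 in old and 0.176 in young animals.

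Without old control 5 and old LA 2 the median SD ratio was 1.24, and 949 genes were more variable (8.73% of those tested) and 35 less variable. Of the 1607 genes, 866 were also called in that fit. Without old LA 2 alone the count was 1045, and without old control 5 alone 1298. A set of 668 genes, 6.15% of those tested, was called there and in each of the 30 fits that left out 1 animal. Where deviations were taken from the group median 176 genes were more variable (1.62%), all of them among the 1607, and 2 were when both animals were also left out.

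**Figure D1:**
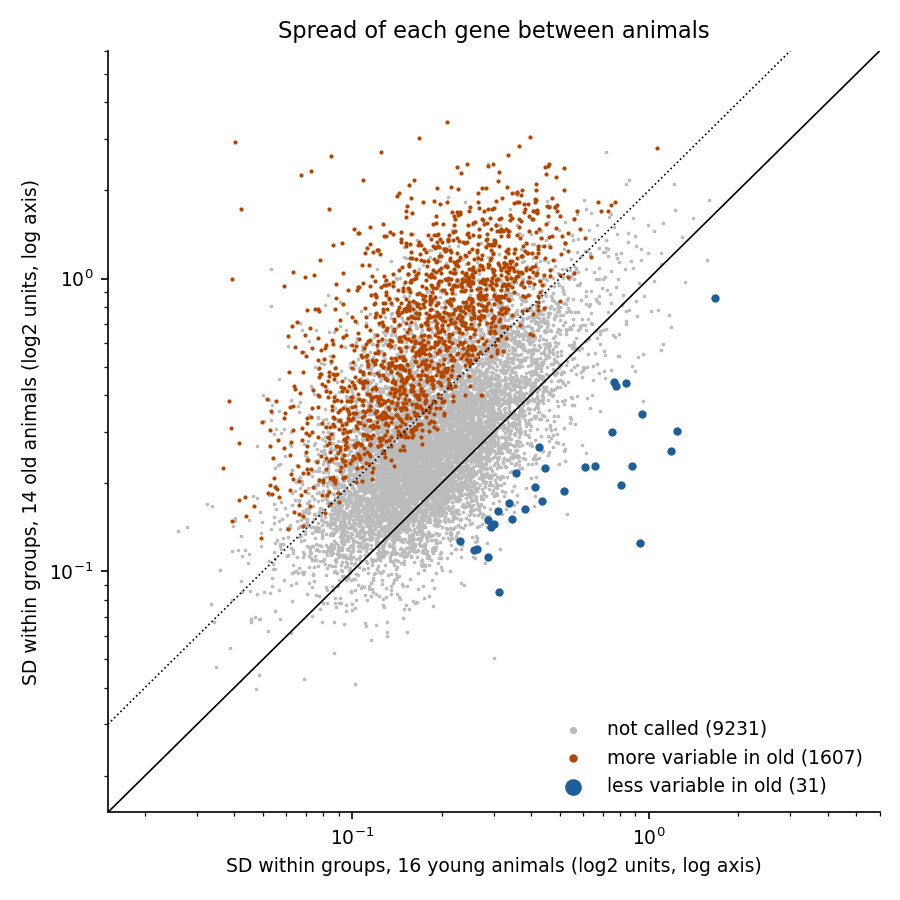
SD within groups of each of 10869 genes in 16 young animals (x axis) and 14 old animals (y axis), in log2 units on log axes. The solid line marks equal SDs and the dotted line an SD ratio of 2; 9194 genes lie above the solid line, and colours mark the 1607 genes more variable and the 31 less variable in old animals.

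Per animal, the mean absolute deviation was 0.306 ± 0.146 log2 units (SD, n = 14) in old and 0.169 ± 0.0168 (SD, n = 16) in young animals. The difference of 0.137 gave p = 2e-05 in a two-sided permutation test, the smallest that 100000 resamples can give. Without both far animals the difference was 0.0614, with the same p. On the control diet it was 0.160 (exact permutation p = 0.000155, the smallest that 8 against 8 animals can give). On the LA diet it was 0.107 (exact permutation p = 0.00200). Without both animals these differences were 0.0755 (exact p = 0.000311) and 0.0413 (exact p = 0.0109). The young animals lay between 0.138 and 0.208. With both far animals kept in the group means, 2 of the other 12 old animals fell inside that range. With group means taken without them, old controls 2 (0.194) and 8 (0.201) fell inside it. So did old LA 1 (0.204), old LA 3 (0.197) and old LA 5 (0.189). The rest of the 12 lay above it, from 0.227 in old control 1 to 0.289 in old control 6.

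**Figure D2:**
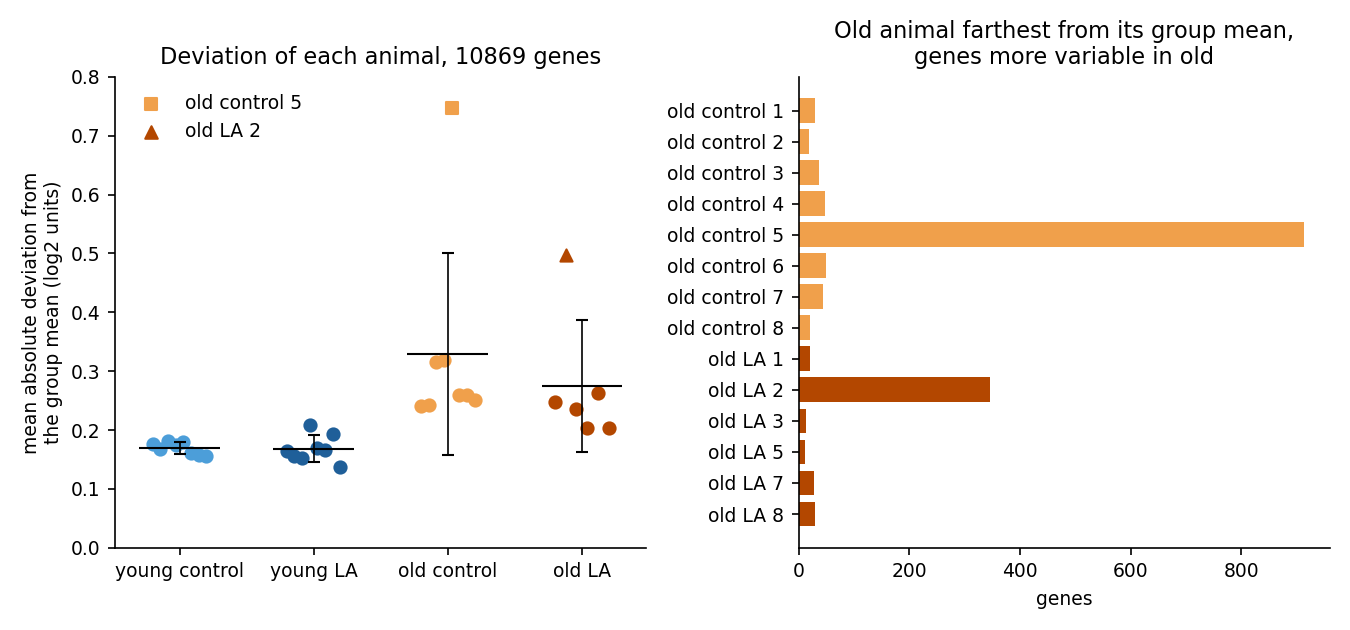
Left, mean absolute deviation from the group mean over 10869 genes for each animal (log2 units), with group means as bars and SDs as whiskers; a square marks old control 5 and a triangle old LA 2. Right, number of the 1607 more variable genes for which each old animal was farthest from its group mean, which was 914 for old control 5 and 345 for old LA 2.

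Among the 1607 genes, old control 5 was the farthest old animal in 914 (56.9%) and old LA 2 in 345 (21.5%). Over all 10869 genes these animals were farthest in 5035 (46.3%) and 1565 (14.4%). Among the 1607, each of the other 12 old animals was farthest in 12 to 49 genes. Spread also depended on signal level. The median young SD went from 0.230 for genes at log2 4 to 6 down to 0.0814 for genes above 14, and the old SD from 0.365 to 0.208. The share called more variable was 21.0% at log2 4 to 6, 9.84% at 8 to 10 and 17.5% at 12 to 14. Among the 7700 genes with a mean between log2 6 and 13 in each group, 723 were more variable (9.39%).

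Spread and mean were separate measures, taken from the same arrays. Of the 1607 more variable genes, 931 (57.9%) had a higher mean in old animals, 227 (14.1%) a lower mean, and 449 no called difference of means. Over all genes, 27.2% had a higher and 21.2% a lower mean in old animals. Of the 31 less variable genes, 19 had a lower and 6 a higher mean.

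The count of called members of each gene list is set beside the 14.8% of all genes that were called, and a share near it says nothing about the list. Genes of T and natural killer (NK) cells, lymphocytes that patrol the liver sinusoids, varied widely among old livers. Of 25 measured markers out of 31 listed, 20 were more variable (80%, against 14.8% of all genes) and 19 had a higher mean, and the median log2 variance ratio was 4.81 against 1.35 for all genes. Of the 20, 1 passed the filter through old animals alone. Without both far animals 16 were called (8.73% of all genes were), with a median of 4.003, and with the group median as the centre 8 were (1.62% of all genes). The mean signal of the list was 4.96 to 5.33 in young animals. In old animals it ran from 5.49 in old LA 7 and 5.61 in old control 8 to 8.80 in old control 7, 8.93 in old LA 2 and 9.70 in old control 5. No old animal fell inside the young range, and the high end was held by animals of both diets.

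Cd8a, a coreceptor of cytotoxic T cells, was at 3.63 to 4.81 (median 4.44) in young control, 4.04 to 5.28 (median 4.87) in young LA, 5.63 to 10.80 (median 8.44) in old control and 5.30 to 10.97 (median 7.23) in old LA. Every old animal was above every young one, and the old animals spread over more than 5 log2 units. The old and young SDs were 1.73 and 0.381 (log2 variance ratio 4.36, SE 0.98, adjusted p = 0.0133, and 0.0406 without both animals). Klrd1, a chain of NK cell receptors, was at 4.40 to 5.21 (median 4.90) in young control, 4.92 to 5.46 (median 5.13) in young LA, 5.24 to 11.76 (median 7.92) in old control and 5.25 to 9.96 (median 7.20) in old LA. Its lowest old animals reached into the young range and its highest lay more than 4 log2 units above it (SDs 2.02 and 0.228, adjusted p = 0.000531, and 0.000444 without both animals).

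Other lymphocyte genes had spreads of the same order. Il2rb, a receptor chain for interleukin-2, had old and young SDs of 2.03 and 0.274, and Ccl5, a chemokine of activated T and NK cells, 2.03 and 0.283. Cst7, a protease inhibitor of cytotoxic cells, had SDs of 1.96 and 0.266, with every old animal above the young ones. Cd96, a receptor of T and NK cells, had the largest ratio of any called gene with a mean over log2 4 in each group, at SDs of 1.72 and 0.0420. It was at 3.96 to 4.15 in young animals and 3.98 to 4.56 in 11 old ones, and at 6.71 in old control 7, 7.13 in old LA 2 and 9.51 in old control 5. This gene was thus far from the young level in 3 animals, and its call was lost without 2 of them (adjusted p = 0.0746). Its young signals were at the log2 4 level of the filter, and the part of the floor in its ratio was not tested.

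Macrophage and Kupffer cell markers were more variable in 13 of 15 (86.7%) cases, against 14.8% of all genes, and 12 of these calls were kept in all fits that left out animals, as were those of 6.15% of all genes. With the group median as the centre 4 of the 15 were called (1.62% of all genes were). Csf1r, the receptor for a macrophage growth factor, was at 7.95 to 8.55 (median 8.25) in young control, 8.26 to 8.63 (median 8.45) in young LA, 7.94 to 9.85 (median 9.14) in old control and 8.58 to 10.39 (median 9.05) in old LA. The old animals ran from the young level to above it, and 4 of 14 were inside the young range. Its SDs were 0.735 and 0.181 (log2 variance ratio 4.05, SE 0.60, adjusted p = 0.000594), and it was called on the control diet (adjusted p = 0.0257) and on the LA diet (0.0433) separately. For Cd163, a scavenger receptor of resident macrophages, the SDs were 0.765 and 0.241 and the farthest animal was old control 8, the lowest at 7.66. Mrc1, the mannose receptor, had SDs of 0.483 and 0.106, and its mean was not called different by age (limma adjusted p = 0.0518). Fcgr1a, the high-affinity receptor for immunoglobulin G, had SDs of 0.636 and 0.149, and was called without both far animals too (adjusted p = 0.00211, then 0.000118).

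Genes of antigen presentation by MHC class II were also highest in the 2 far animals. Of 10 genes 9 were more variable (90%), with a median log2 variance ratio of 4.16, and 9 were called without both far animals. With the group median as the centre 2 were called (1.62% of all genes were). Cd74, the invariant chain that guides class II molecules, was at 11.24 to 12.29 in young control, 11.68 to 12.22 in young LA, 11.55 to 14.74 in old control and 11.97 to 15.31 in old LA (SDs 1.11 and 0.288, adjusted p = 0.00762). RT1-Db1, a class II beta chain, was at 13.36 in old control 5, 13.70 in old LA 2, 9.21 to 11.77 in the other old and 8.90 to 10.04 in the young animals. The proteases that trim antigens and the invariant chain, Ctss and Lgmn, had SDs of 0.835 and 0.185 and of 0.814 and 0.192. The mean signal of the list was 12.68 in old control 5 and 12.82 in old LA 2, 9.12 to 11.23 in the other old and 8.76 to 9.74 in the young animals.

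Neutrophil and monocyte markers were called in 3 of 5 (60%) cases, and in 5 without both far animals. Of the 3, Fcnb and Lcn2 passed the filter through old animals alone, so their calls are no support for the list. A list of 5 genes is also too short to read against the 14.8% of all genes. S100a8, a calcium-binding protein of neutrophils, had SDs of 1.96 and 0.352 and was not called at first (adjusted p = 0.0585, and 0.0138 without both animals). Old control 5, at 12.74, made up 67.2% of its old sum of squares. Fcnb, a lectin of monocytes and neutrophils that passed the filter through old animals alone, was at 3.01 to 3.75 in young animals, 3.09 to 7.64 (median 5.18) in old control and 4.24 to 5.86 (median 4.99) in old LA. Itgb2, the shared beta chain of leukocyte integrins, was at 6.99 to 7.82 in young and 8.16 to 11.65 in old animals, with no overlap (SDs 1.11 and 0.206). Of 5 B and plasma cell markers 1 was called (20%), Cd37, a tetraspanin of several leukocytes (SDs 1.12 and 0.114), and their median log2 variance ratio was 1.63.

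Chemokines and inflammatory signals were more variable in 14 of 23 (60.9%) cases, and 20 had a higher mean in old animals. Without both far animals 12 were called, and with the group median as the centre 3 were. Cxcl16, a chemokine of macrophages, was at 7.45 to 7.97 in young animals, 7.75 to 10.53 (median 9.42) in old control and 8.23 to 10.05 (median 8.74) in old LA. Its farthest animal was old control 4, the lowest, and its SDs were 0.923 and 0.156. Ccl2, which attracts monocytes, was at 3.91 to 5.12 in young animals, 4.46 to 11.30 (median 6.45) in old control and 4.90 to 8.62 (median 5.72) in old LA (SDs 2.01 and 0.373, adjusted p = 0.00663). Ccl21, a chemokine of lymphatic vessels and lymphoid tissue, separated the 2 far animals, at 6.48 in old control 5, the highest of its group, and 2.93 in old LA 2, the lowest. The other old animals were at 4.18 to 6.56 (SDs 0.998 and 0.234). Tnf, an inflammatory cytokine that passed the filter through old animals alone, was near the floor in all animals, at 3.03 to 3.91 in young and 2.91 to 4.57 in old ones. Interferon-stimulated genes had a higher mean in old animals in 25 of 27 cases, where 27.2% of all genes had one. They were more variable in 5 (18.5%), near the 14.8% of all genes. Without both far animals 7 of the 27 were called, where 8.73% of all genes were, and with the group median as the centre 1 was. At an unadjusted limma p under 0.05 with all animals 16 of the 27 were more variable, as were 3692 of all 10869 genes. Cxcl10, an interferon-induced chemokine, was at 5.15 to 6.49 in young animals, 5.60 to 9.11 in old control and 7.39 to 10.82 in old LA, and Mx1, an antiviral GTPase, had SDs of 1.28 and 0.283. Irf8, a transcription factor of myeloid cells, had SDs of 0.570 and 0.209, and Oasl, of the oligoadenylate synthetase family, 0.651 and 0.235.

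Cell-cycle genes were more variable in 25 of 27 (92.6%) cases, with a median log2 variance ratio of 3.84. Mki67, a marker of dividing cells, was at 3.65 to 4.16 (median 3.95) in young control, 3.91 to 4.34 (median 3.98) in young LA, 3.98 to 8.65 (median 4.73) in old control and 3.94 to 8.94 (median 4.91) in old LA. It was above the young range in 9 of 14 old animals and within it in the other 5. Its SDs were 1.97 and 0.143 (log2 variance ratio 7.56, SE 1.02, adjusted p = 9.79e-05, and 0.000118 without both animals). Young signals of Mki67 were close to the log2 4 level of the filter, and the part of the floor in its ratio was not tested. Top2a, a topoisomerase of dividing cells, had SDs of 2.05 and 0.332, Ccna2, a cyclin of DNA synthesis, 1.88 and 0.320, and Mcm6, a subunit of the replicative helicase, 1.55 and 0.254.

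The mean signal of the cell-cycle list was 8.26 in old control 5, 8.19 in old LA 2, 7.70 in old control 7 and 7.08 in old control 6. It was 5.43 to 6.38 in the other 10 old and 5.38 to 6.02 in the young animals. These 4 animals also had the 4 highest signals of T and NK cell markers among old animals. Without both far animals 14 of the 27 cell-cycle genes were called, and with the group median as the centre 5 were. The part of immune cells in the cell-cycle values was not tested.

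**Figure D3:**
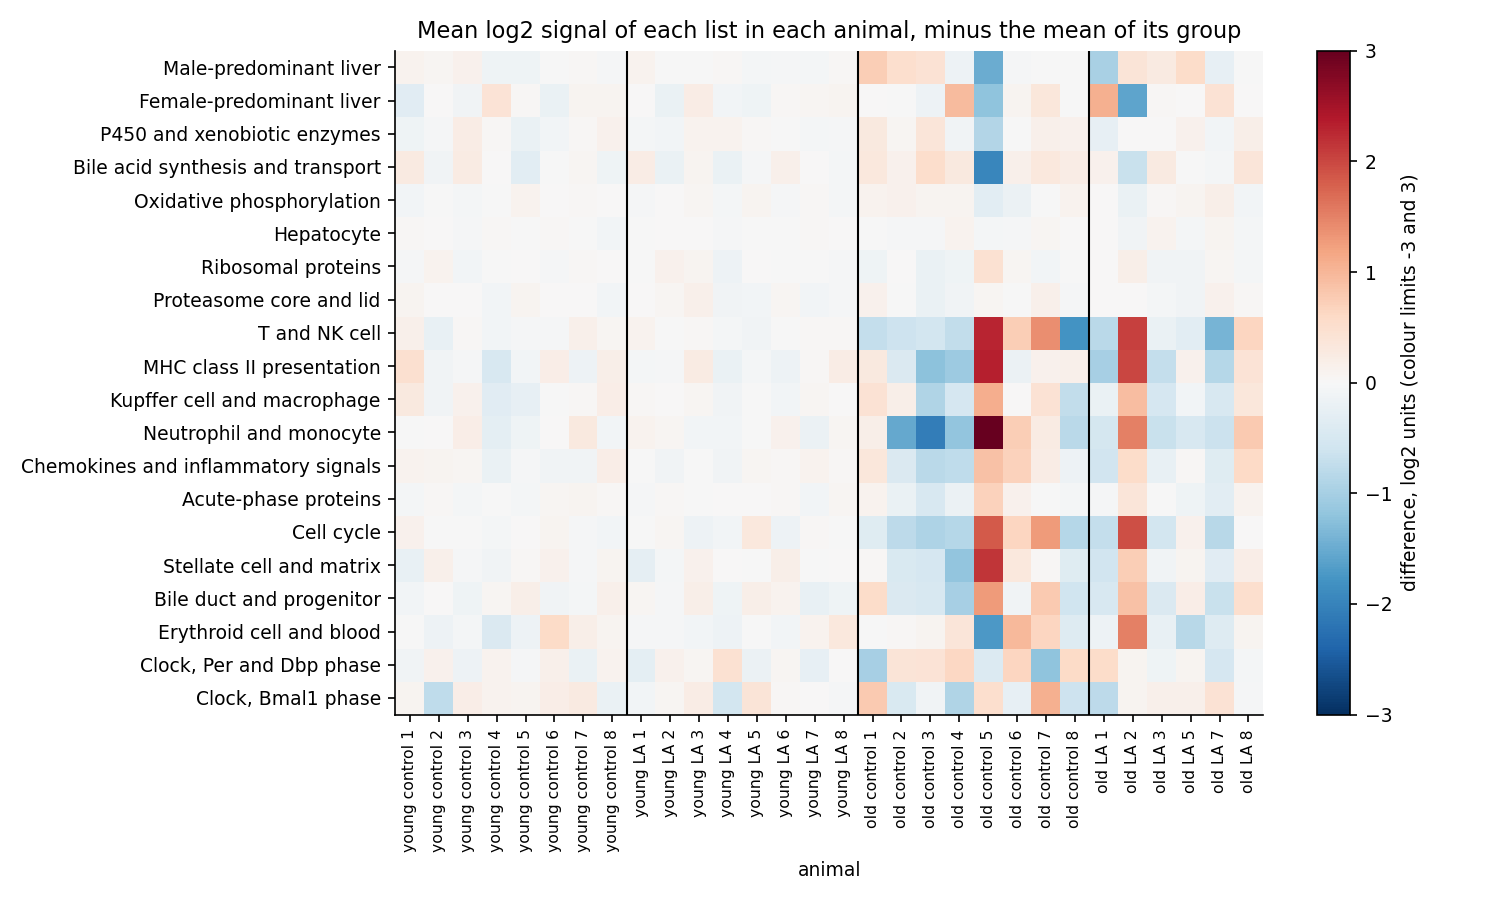
Mean log2 signal of 20 gene lists in each of the 30 animals, minus the mean of the animal's group, as colour from -3 to 3 log2 units. Old control 5 and old LA 2 are high in the T and NK cell, MHC class II and cell-cycle lists, old control 7 is the next highest in the first and the last of these, and the hepatocyte list is near 0 in every animal.

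Stellate cell and matrix genes were more variable in 8 of 15 (53.3%) cases, in 8 without both far animals and in 0 with the group median as the centre. Col3a1, a fibrillar collagen, was at 10.70 to 11.46 in young animals, 8.84 to 13.14 (median 11.03) in old control and 9.40 to 11.87 (median 10.40) in old LA. Old animals lay on both sides of the young range, from old control 4 at the low end to old control 5 at the high end, and the difference of means was -0.19 (limma adjusted p = 0.569). Its SDs were 1.11 and 0.209 (adjusted p = 0.0159). Lrat, which esterifies retinol for storage in stellate cells, likewise had SDs of 0.593 and 0.206 at means not called different (adjusted p = 0.606). Pdgfrb, a growth factor receptor of stellate cells and pericytes, had SDs of 0.913 and 0.317, and 0.335 and 0.261 on another probe set (adjusted p = 0.403). Vim, the intermediate filament of mesenchymal cells, had SDs of 1.34 and 0.228, and old control 5 made up 52.0% of its old sum of squares.

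Bile duct and progenitor genes were more variable in 4 of 6 (66.7%) cases, a list too short to read against the background of 14.8%. Cd24, a surface protein of duct and progenitor cells and of some leukocytes, was at 4.36 to 5.33 in young animals, 6.21 to 11.06 (median 7.79) in old control and 5.09 to 9.88 (median 6.56) in old LA. All old animals but 1 lay above the young range, and its SDs were 1.83 and 0.265 (adjusted p = 0.000324). Krt19, a keratin of bile ducts, reached 8.58 in old control 5 from 4.78 in the lowest old animal, against 4.26 to 5.45 in young animals, and was called on the control diet (adjusted p = 0.00414) but not on the LA diet (0.700). The chloride channel Cftr and the mucin Muc1, both of duct epithelium, had SDs of 0.669 and 0.260 and of 0.274 and 0.0415. For Krt19 the difference between diets did not pass its own test (interaction adjusted p = 0.653).

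Markers of other cell types in the tissue were called in part: 3 of 10 (30%) endothelial genes, 1 of 4 (25%) erythroid genes, 2 of 3 (66.7%) adipocyte genes and 1 of 2 (50%) muscle genes. Nothing is read from these shares, since 2 to 10 genes a list are too few to set against 14.8%. Plvap, a protein of fenestrated endothelium, had SDs of 0.792 and 0.152, and Stab2, a scavenger receptor of sinusoidal endothelium, 0.408 and 0.138. Kdr, a receptor for vascular growth factor, had SDs of 0.352 and 0.0967, but a second probe set of it gave a ratio of the opposite sign. Hbb, a haemoglobin chain, varied at both ages (SDs 1.62 and 0.734) and was not called (adjusted p = 0.200). The erythroid list was lowest in old control 5 (5.19) and highest in old LA 2 (9.26), although both were high in the immune lists. Alas2, the haem synthesis enzyme of red cell precursors, went the same way, at 2.99 and 8.82, against 3.79 to 4.68 in young animals. Fabp4, a fatty acid carrier of adipocytes and macrophages, was at 3.85 to 5.29 in young animals and ran from 4.34 to 14.03 in old ones. It was above 10 in old control 5 and old LA 2 alone, and remained called without them (adjusted p = 0.0104, then 0.0163). Myh2, a myosin of skeletal muscle, passed the filter through old animals alone, and was at 3.04 to 3.62 in young animals, 8.83 in old control 5, 7.68 in old LA 2 and 2.98 to 6.45 in the other old animals. The part of other tissue in these pieces of liver was not tested.

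Male-predominant liver genes, which fell in mean with age in 12 of 14 cases, were more variable in 8 (57.1%, against 14.8% of all genes). Their median log2 variance ratio was 5.44, and 2.18 without both far animals, when 6 were called. Cyp2c11, the main male P450 of rat liver, was at 14.91 to 15.08 (median 14.94) in young control, 14.80 to 14.99 (median 14.87) in young LA, 4.08 to 10.87 (median 6.82) in old control and 3.96 to 10.93 (median 7.28) in old LA. All old animals were below all young ones and spread over more than 6 log2 units, with old LA 2 and old control 5 lowest. Its SDs were 2.26 and 0.0672 (log2 variance ratio 10.15, SE 0.75, adjusted p = 0.00148), and the old SD was 1.91 without these animals (adjusted p = 0.000284).

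Obp3, an odorant-binding protein secreted by male rat liver, was at 15.65 to 16.35 in young animals, 4.56 to 8.04 (median 6.55) in old control and 4.07 to 6.62 (median 5.52) in old LA. Old control 5 (5.88) and old LA 2 (5.60) lay inside the ranges of the other animals of their groups. The log2 variance ratio was 5.79 with them and 6.02 without. Cyp2c13, another male P450, was at 14.31 to 14.87 in young animals, 5.96 to 13.05 (median 10.22) in old control and 6.62 to 12.17 (median 10.81) in old LA, with SDs of 2.16 and 0.109. Sult1e1, the oestrogen sulfotransferase, had SDs of 1.40 and 0.130 and Cyp2a2, a male steroid hydroxylase, 0.933 and 0.105. In all 4 the young values lay above log2 13, where young SDs were small for all genes, and the part of signal level in the ratios was not tested.

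Female-predominant genes were more variable in 5 of 11 (45.5%) cases, and 8 of them had a higher mean in old animals. A1bg, a plasma glycoprotein, passed the filter through old animals alone, so its call is no support for the list. It was at 2.42 to 2.96 in young animals, 6.46 to 13.76 (median 8.76) in old control and 2.28 to 13.41 (median 7.98) in old LA. Old LA 2 was below the young range and the other 13 old animals were above it (SDs 3.02 and 0.168). Sult2a2, a hydroxysteroid sulfotransferase, had SDs of 1.48 and 0.584 with every old animal above the young ones, and Akr1b7, an aldo-keto reductase, 1.96 and 0.345, a call lost without both animals (adjusted p = 0.453). Ust5r, listed as female-predominant, moved against that name, with a mean lower by 6.10 log2 units in old animals and SDs of 0.876 and 0.116.

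Cyp2c12, the main female P450 of rat liver, differed from these. Its mean was 7.42 log2 units higher in old animals, and its SDs were 0.511 and 0.670, with no call (adjusted p = 0.502). It was at 14.75 to 15.63 in 13 old animals and at 13.61 in old control 5, against 6.88 to 9.14 in young ones. Without both far animals the old SD was 0.190 (adjusted p = 0.119). Of 16 growth hormone and insulin signalling genes none was more variable with limma (6 at an unadjusted p under 0.05 and 6 in the F test of the variance ratio) and 1, Bcl6, was less variable.

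**Figure D4:**
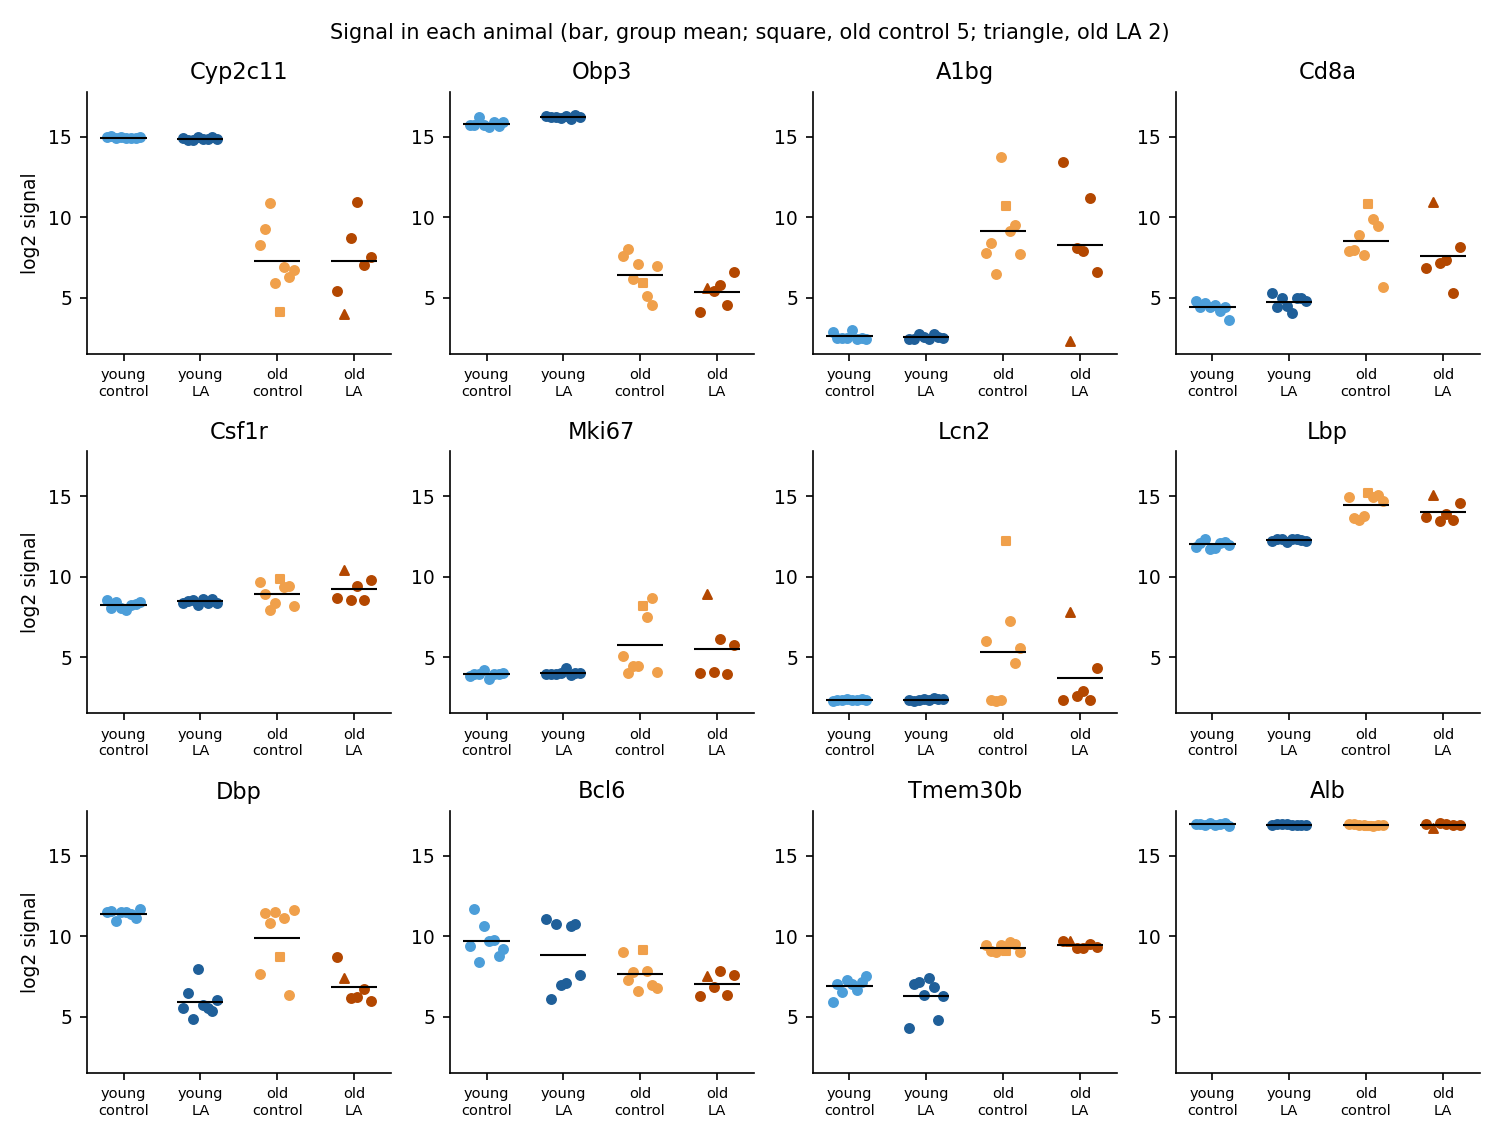
Log2 signal of 12 genes in each of the 30 animals, by group, with group means as bars; squares mark old control 5 and triangles old LA 2. Cyp2c11, A1bg, Cd8a, Mki67 and Lcn2 spread over several log2 units in the old groups, Bcl6 and Tmem30b are wider in the young groups, and Alb stays between 16.76 and 17.03.

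Several genes with large ratios had no young animal over log2 4 and were high in part of the old ones, so the direction of their difference was fixed by the filter and no test is given. Lcn2, a siderophore-binding protein of neutrophils and of injured epithelium, was at 2.26 to 2.42 in young animals, 2.29 to 12.21 (median 5.10) in old control and 2.33 to 7.82 (median 2.72) in old LA. It was above the young range in 9 of 14 old animals (SDs 2.92 and 0.0401). Pnliprp2, a lipase of the pancreatic lipase family, was at 2.55 to 3.32 in young animals, 2.84 to 14.29 (median 7.58) in old control and 2.96 to 10.49 (median 6.48) in old LA. Tmsb15b2, of the thymosin family, had SDs of 2.62 and 0.0850, and Cdhr1, a cadherin-related protein, 2.32 and 0.0727. Eya2, a developmental coactivator, was at 3.41 to 3.69 in young animals and highest in the 2 far animals, at 6.07 and 6.23. A young SD at the floor cannot be told apart from the noise of the array, so these ratios depend on the floor.

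Genes were picked here for the largest ratios, so their size is a description. In another set of genes a single animal made up most of the old variance. Glyat, a mitochondrial glycine acyltransferase, was at 10.86 to 11.55 in young animals, 9.04 to 11.56 in 13 old ones and 5.03 in old control 5, which made up 76.4% of the old sum of squares. Its SDs were 1.73 and 0.0833 (adjusted p = 0.0390), and the old SD was 0.417 without both animals, still called (adjusted p = 0.00830). Kmo, an enzyme of tryptophan breakdown, was at 7.67 in old control 5 and 10.50 to 12.21 in the others, and Aadac, a liver esterase, at 8.04 there, 10.36 in old LA 2 and 12.12 to 12.74 in the others. Neither was called without both animals (adjusted p = 0.138 and 0.299). Dusp10, a phosphatase of stress kinases, deviated upwards, at 7.69 in old control 5 and 3.84 to 5.22 in the other old animals. Kctd15, a regulator of transcription, did the same, at 7.55 against 3.71 to 5.09. Kcnab2, a potassium channel subunit, was high in both far animals (8.78 and 8.89), and at 5.43 to 8.06 in the other old and 5.25 to 5.62 in the young animals. On another probe set of Kcnab2 the old and young SDs were 0.351 and 0.313, with no call (adjusted p = 0.824).

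Abundant hepatocyte genes showed this at smaller size. Apoa2, an apolipoprotein of high-density lipoprotein and 1 of 17 hepatocyte markers (5.88% called, the others not), was at 15.998 to 16.23 in young animals, 15.90 to 16.29 in 12 old ones, 15.71 in old LA 2 and 14.84 in old control 5. Fabp1, the fatty acid carrier of hepatocytes, had SDs of 0.381 and 0.0384, and an old SD of 0.0689 without both animals. Both calls were lost without them (adjusted p = 0.119 and 0.460). Of 16 bile acid genes 4 were more variable (25%), and 1 without both animals. Slc10a1, the bile acid importer, was at 12.51 in old control 5, 12.87 in old LA 2 and 14.40 to 15.01 in the other old animals, against 14.69 to 15.05 in young ones. Slco1a1 and Slco1a4, organic anion importers, were at 6.34 and 9.65 in old control 5, 8.47 and 10.84 in old LA 2, and 9.68 to 10.90 and 11.76 to 14.24 in the other old animals. Slc27a5, which activates bile acids for conjugation, was at 12.28 in old control 5 and 13.65 to 14.76 in the other old animals. The mean signal of the bile acid list was 9.35 and 10.78 in these animals and 11.39 to 11.83 in the other old ones.

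Car3, a carbonic anhydrase abundant in male liver, combined both patterns. It was at 15.62 to 16.26 in young animals, 10.81 to 13.52 in 12 old ones, 5.24 in old control 5 and 5.22 in old LA 2. Its SDs were 2.71 and 0.125, and the old SD was 0.823 without these animals, with the call kept (adjusted p = 0.0229, then 0.000118). Hsd11b1, which regenerates corticosterone in liver, was at 14.75 to 15.16 in young, 13.14 to 14.07 in old control and 13.005 to 14.13 in old LA animals. Its SDs were 0.405 and 0.0668, and the old SD without both animals was 0.403.

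Circadian clock genes varied through old control 5 and also through other old control animals. Of 12 genes of the Per and Dbp phase 6 were more variable (50%, against 14.8% of all genes). Without both far animals 5 were called, and with the group median as the centre 1 was (1.62% of all genes). Of 5 genes of the Bmal1 phase 2 were called (40%), 1 without both far animals and 0 with the group median. That list is too short to read against 14.8%. Dbp, a transcription factor of the clock output, was at 10.92 to 11.71 (median 11.51) in young control, 4.84 to 7.94 (median 5.64) in young LA, 6.37 to 11.61 (median 10.996) in old control and 5.96 to 8.71 (median 6.46) in old LA. Both LA groups were lower in level than both control groups, a difference that the group means remove here. In old control, 5 animals were at 10.84 to 11.61, and old controls 1, 5 and 7 were at 7.64, 8.70 and 6.37. Its log2 variance ratio was 5.99 on the control diet (adjusted p = 0.00333) and 0.29 on the LA diet (adjusted p = 0.860). The difference between diets did not pass its own test (interaction adjusted p = 0.514).

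Old controls 1 and 7 also had the lowest mean signals of the Per and Dbp phase in their group (7.44 and 7.23) and the highest of the Bmal1 phase (8.57 and 8.85). Old control 5 came next in both lists, at 8.02 and 8.30. Per3, a clock repressor, had SDs of 1.04 and 0.335, and Hlf, a relative of Dbp, 1.05 and 0.299. A second probe set of Per3 gave a log2 variance ratio of the opposite sign. Bmal1, the positive arm of the clock, had SDs of 1.19 and 0.636 (adjusted p = 0.0403, and 0.0765 without both animals), and Clock, its partner, 0.379 and 0.129 (adjusted p = 0.0132, then 0.0133). Npas2, which can replace Clock, varied at both ages (SDs 1.61 and 0.884, adjusted p = 0.237), and Per2 was not called (adjusted p = 0.0727). The hour of sampling is not given in the sources used here, and its part was not tested.

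Immediate-early and stress kinase genes were more variable in 7 of 17 (41.2%) cases, in 4 without both far animals and in 0 with the group median as the centre. Fos was at 2.91 to 5.94 in young animals, 3.23 to 8.72 (median 5.04) in old control and 3.42 to 6.48 (median 3.84) in old LA (SDs 1.82 and 0.673, adjusted p = 0.00235). Another probe set of Fos had SDs of 0.335 and 0.0657 and was not called (adjusted p = 0.191). Egr1, another transcription factor induced within minutes of a stimulus, was at 5.98 to 7.51 in young animals, 6.79 to 11.97 (median 10.19) in old control and 8.17 to 10.90 (median 8.55) in old LA, and most old animals were above the young range. Its SDs were 1.63 and 0.501 (adjusted p = 0.0102). Atf3, a stress-induced repressor, was at 4.33 to 5.95 in young and 4.30 to 10.29 in old animals (SDs 1.77 and 0.455, adjusted p = 0.0221, and 0.178 without both animals). Gadd45b, a stress sensor listed with it, was at 9.91 in old control 5 and 5.84 to 7.95 in the other old animals. Nr4a1, a nuclear receptor of the same response, lost its call without both animals (adjusted p = 0.00545, then 0.0611).

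Of 19 NRF2 targets and glutathione genes 5 were more variable (26.3%, against 14.8% of all genes), and 1 with the group median as the centre. Gpx2, a glutathione peroxidase of epithelia, was at 3.10 to 4.59 in young animals, 4.96 to 8.99 (median 6.98) in old control and 4.38 to 9.47 (median 7.83) in old LA. Old animals were spread over the whole of that range, and the old SD was 1.83 with and 1.75 without both far animals, against 0.365 in young ones. Hmox1, which breaks down haem, had SDs of 1.35 and 0.210. Gstp1, a glutathione transferase low in normal rat hepatocytes, was at 9.32 to 10.05 in young animals, 13.44 in old control 5, 11.53 in old LA 2 and 10.04 to 12.07 in the other old animals. Of 22 P450 and xenobiotic genes 6 were more variable (27.3%), among them Cyp1a2 (SDs 0.583 and 0.212) and Cyp3a18 (0.670 and 0.229), which were both lower in mean in old animals.

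Ribosomal protein genes were not called with limma in any of 18 cases (4 at an unadjusted p under 0.05 and 11 in the F test of the variance ratio). Their median SDs were 0.177 in old and 0.0847 in young animals, and their median log2 variance ratio was 2.30 with all animals and 0.54 without both far ones. Their mean signal was 14.83 in old control 5 and 14.17 to 14.47 in the other old animals. Of 24 proteasome genes 1 was called (4.17%), Psmd2, a subunit of the regulatory particle (SDs 0.154 and 0.0438). Of 27 oxidative phosphorylation genes 6 were called (22.2%, against 14.8% of all genes), 2 without both animals and 13 with each array centred on its median. With both animals included, the called subunits had small SDs, such as 0.275 and 0.0836 for Uqcrc2 of complex III and 0.205 and 0.0873 for Ndufb8 of complex I. Sdha, the flavoprotein of succinate dehydrogenase, was at 11.58 in old control 5, 12.20 in old LA 2 and 12.50 to 12.93 in the other old animals.

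Genes of lipoic acid metabolism itself were within the 15 citrate cycle and lipoylated complex genes, of which 3 were called (20%). Lias, which makes lipoic acid, had SDs of 0.525 and 0.0848, and Dld, the dehydrogenase that reoxidises it, 0.267 and 0.0703. Old control 5 made up 71.7% and 60.0% of their old sums of squares, and neither was called without both animals (adjusted p = 0.255 and 0.0946).

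**Figure D5:**
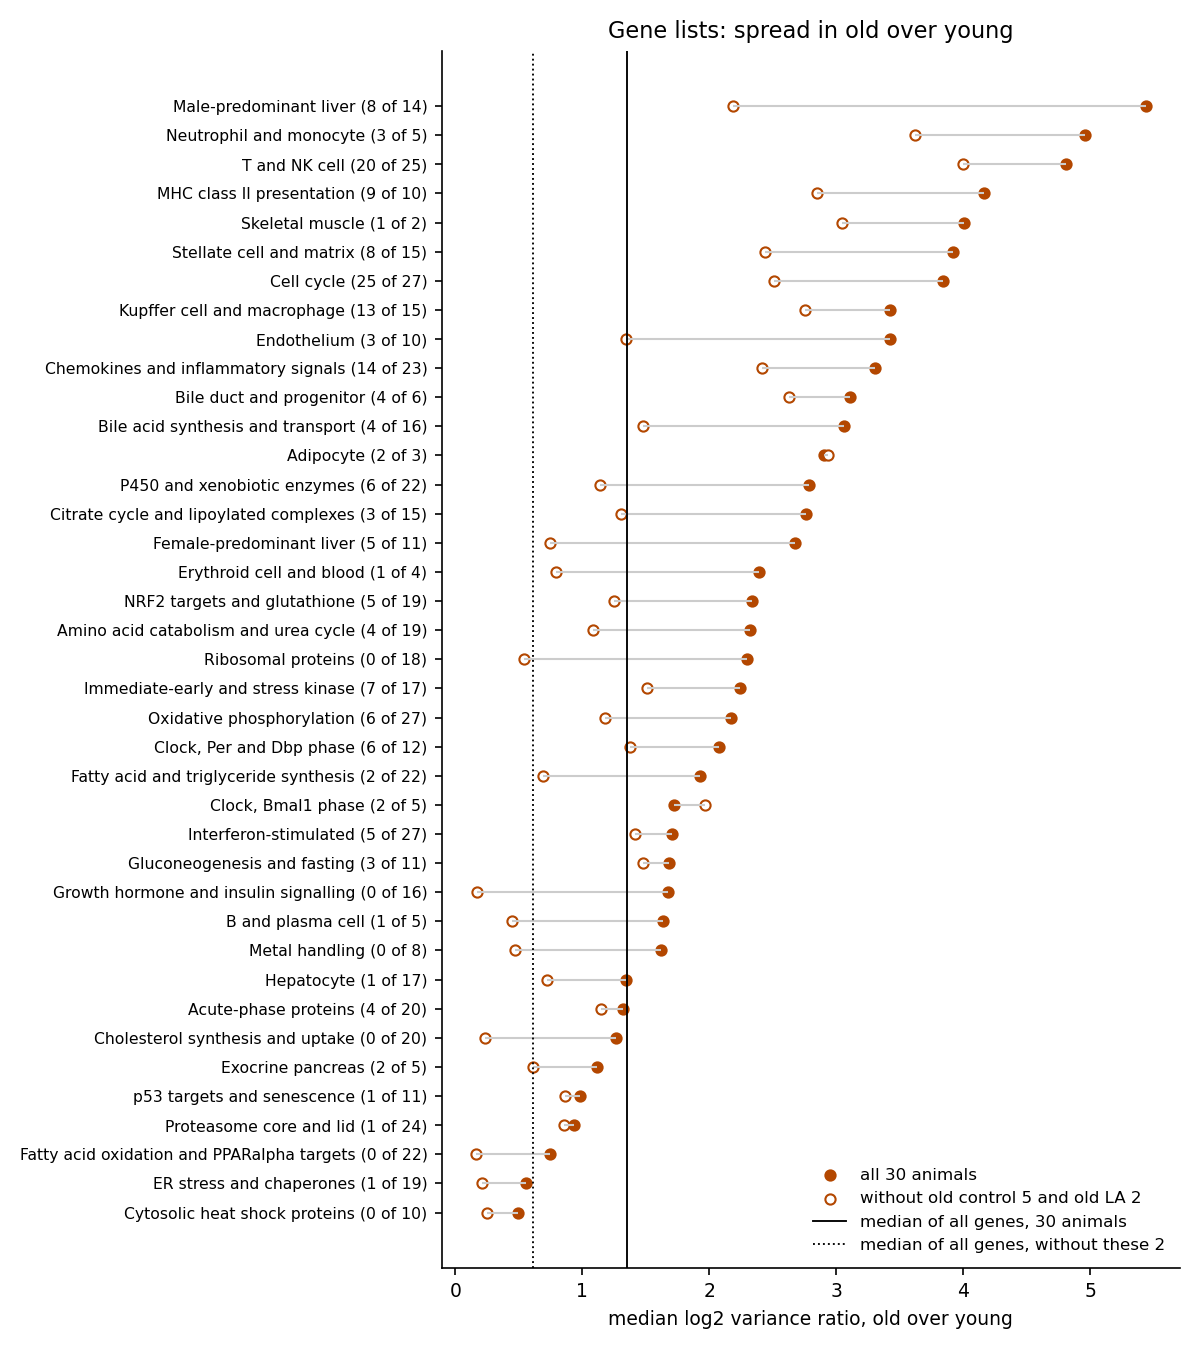
Median log2 variance ratio, old over young, of 39 gene lists with all 30 animals (filled points) and without old control 5 and old LA 2 (open points); brackets give members more variable in old animals of those measured, and vertical lines the medians over all genes. The male-predominant list is highest at 5.44 and the cytosolic heat shock list lowest at 0.50.

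Lists of lipid metabolism, protein folding and metals held 0 to 2 called genes each, where 14.8% of all genes were called. Lists of 8 to 22 genes were not tested against that share. No gene was called with limma among 22 of fatty acid oxidation (4 at an unadjusted p under 0.05 and 3 in the F test of the variance ratio), where the median log2 variance ratio was 0.75. The same held for 20 cholesterol genes (1 at an unadjusted p under 0.05 and 4 in the F test of the variance ratio), 10 cytosolic heat shock genes (1 at an unadjusted p under 0.05 and 1 in the F test of the variance ratio) and 8 metal handling genes (2 at an unadjusted p under 0.05 and 3 in the F test of the variance ratio). Young animals already varied in the first 2 of these lists, with median young SDs of 0.352 and 0.405 against 0.182 over all genes. Of 19 endoplasmic reticulum stress genes 1 was called (5.26%), the transcription factor Ddit3, and not without both far animals (adjusted p = 0.150). Of 22 fatty acid and triglyceride synthesis genes 2 were called (9.09%), among them the desaturase Fads2 (SDs 1.65 and 0.339), which also lost its call (adjusted p = 0.301). Dgat2, the last enzyme of triglyceride synthesis, was at 11.43 in old control 5, 12.10 in old LA 2 and 12.79 to 13.64 in the other old animals, and was not called (adjusted p = 0.0505). Fgf21, a hormone of fasting, varied at both ages (SDs 1.07 and 0.541, adjusted p = 0.109). Fasn, the fatty acid synthase, varied at both ages (SDs 1.39 and 0.895, adjusted p = 0.311).

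The remaining lists lay on both sides of 14.8%: 4 of 19 (21.1%) of amino acid catabolism and the urea cycle, 3 of 11 (27.3%) of gluconeogenesis and fasting, 4 of 20 (20%) acute-phase proteins, 1 of 11 (9.09%) p53 targets and senescence genes and 2 of 5 (40%) of exocrine pancreas. Nothing is read from shares of lists this short. Sds, a serine dehydratase induced by fasting and protein, was at 7.40 to 14.02 in young, 3.95 to 12.19 in old control and 5.52 to 12.93 in old LA animals (SDs 2.79 and 1.07). Lbp, an acute-phase protein that binds bacterial lipopolysaccharide, was at 11.74 to 12.38 in young animals, 13.54 to 15.19 (median 14.81) in old control and 13.49 to 15.08 (median 13.80) in old LA. Every old animal was above every young one, and the SDs were 0.673 and 0.156 (adjusted p = 0.000151), with calls on both diets. Serpina3m, a protease inhibitor, was at 12.75 in old control 5, 12.90 in old LA 2 and 13.30 to 14.15 in the other old animals, below the young range of 14.08 to 14.54 in most. Cela1, an elastase of exocrine pancreas, was at 8.68 to 9.80 in young, 4.33 to 8.61 (median 5.46) in old control and 4.10 to 6.21 (median 5.63) in old LA animals, with every old animal below the young ones (SDs 1.31 and 0.286). Gpt and Agxt, transaminases of alanine and of glyoxylate, had SDs of 0.581 and 0.237 and of 0.798 and 0.240, and Gdf15, a stress cytokine, 0.527 and 0.141. Otc, an enzyme of the urea cycle, was at 11.18 in old control 5 and 12.24 to 13.97 in the other old animals.

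The 10 genes of smallest pooled SD among those with a mean over log2 8 in each group were chosen for that value, so their spread is given as a description. They were Alb, Hpx, Ahsg, Hp, Itih3, Gc and Fgg, which encode secreted plasma proteins of hepatocytes, and COX1, COX2 and Cox4i1 of cytochrome oxidase. Alb, albumin, was at 16.89 to 17.03 in young control, 16.90 to 16.99 in young LA, 16.89 to 16.999 in old control and 16.76 to 17.03 in old LA, with the old ranges over most of the young ones. Hpx, the haem scavenger haemopexin, was at 15.62 to 15.73 in young and 15.77 to 15.91 in old animals. Its mean thus differed with no overlap while its SDs were 0.0471 and 0.0348. Hp, haptoglobin, had SDs of 0.0443 and 0.0484 and Ahsg, fetuin-A, 0.0395 and 0.0472. Alb and Hpx lay above log2 14, where the median young SD over genes was 0.0814, against 0.168 at log2 8 to 10. The part of signal level in these small SDs was not tested.

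Some of the 31 genes less variable in old animals sat at another mean level and in a narrow range. Tmem30b, a subunit of lipid flippases, was at 5.91 to 7.52 (median 7.01) in young control, 4.31 to 7.43 (median 6.58) in young LA, 9.0 to 9.65 (median 9.27) in old control and 9.29 to 9.70 (median 9.45) in old LA. All old animals were above all young ones, with SDs of 0.228 and 0.878 (log2 variance ratio -3.88, SE 0.83, adjusted p = 0.0339, and 0.0597 without both far animals). Ablim1, an actin-binding protein, was at 5.54 to 7.34 in young and 7.54 to 8.33 in old animals (SDs 0.188 and 0.518), but a second probe set of it gave a ratio of the opposite sign. Tmco4 and Ccdc125 also had higher means in old animals, with SDs of 0.173 and 0.435 and of 0.150 and 0.345. Of the 31 genes 18 had a mean over log2 4 in each group. Adam22, a protein of the disintegrin family, passed the filter through young animals alone and was at 3.45 to 6.07 in young and 2.61 to 3.21 in old animals. Cib2, a calcium-binding protein (SDs 0.302 and 1.24), and the transporter Slc22a25 (0.194 and 0.413) also had no old animal over log2 4, where little spread can be measured.

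In others the old and young ranges overlapped. Dusp6, a phosphatase of ERK kinases, was at 8.11 to 11.01 in young and 9.71 to 10.72 in old animals, so the old range lay within the young one (SDs 0.299 and 0.752, adjusted p = 0.0377). Xpo4, a nuclear export receptor, had SDs of 0.118 and 0.257 at means not called different (difference 0.03), and Smad3, a mediator of TGF-beta signals, 0.163 and 0.382. Other probe sets of Dusp6 (log2 variance ratios -1.51 and -1.79, adjusted p = 0.137 for each) and of Xpo4 (-1.55 and -1.39, 0.178 and 0.359) were not called. Bcl6, a transcriptional repressor that growth hormone lowers in liver, was at 8.37 to 11.68 (median 9.55) in young control, 6.09 to 11.04 (median 9.13) in young LA, 6.57 to 9.11 (median 7.54) in old control and 6.27 to 7.82 (median 7.18) in old LA. In young LA, 4 animals were at 6.09 to 7.62 and 4 at 10.64 to 11.04. Its SDs were 0.860 and 1.66 (log2 variance ratio -1.91, SE 0.63, adjusted p = 0.0173). Styxl1, a pseudophosphatase, was at 4.60 to 5.58 in young and 4.56 to 4.91 in old animals (SDs 0.112 and 0.286, adjusted p = 0.0179). Of the 31 genes, 7 were called in each fit that left out animals: Styxl1, Bcl6, Mmd2, Adam22, Dpp6, Cib2 and Slc22a25. The last 4 had no old animal over log2 4 and Mmd2 was at 2.67 to 4.07 in old animals, so nothing is read from those 5 calls.

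By diet, 539 genes were more variable in old control than in young control (4.96% of those tested) and 14 less variable (0.129%). On the LA diet, with 6 old animals, 35 genes were more variable (0.322%) and 1 was less variable (0.0092%), and at an unadjusted p under 0.05 these were 1432 and 129. The counts rested on single animals: without old control 5 the control-diet count was 157 and the LA-diet count 548, and without old LA 2 they were 1148 and 3. The median log2 variance ratio was 1.66 on the control and 1.0 on the LA diet. The difference between diets was itself called in limma's interaction term for 0 genes, with 204 higher and 446 lower on LA at an unadjusted p under 0.05. It was called for 3 higher and 11 lower genes when the log2 of the deviations was fitted. Over all genes 6898 (63.5%) had a variance ratio over 1 on both diets. Among the 1607, which were called on both diets together and so are no separate evidence, 1598 had one.

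The 14 genes called more variable on each diet were Mki67 and Zfp367, Csf1r, Hcls1, Fgd2 and Apobr, Cd24, Cyp2a2, Hsd11b1 and Lbp, and Spin2b, Fam89a, Cdh23 and Ppl, of which Ppl passed the filter through old animals alone. Hcls1, a signalling adaptor of blood cells, was at 5.75 to 6.32 in young, 6.12 to 8.35 in old control and 6.57 to 8.42 in old LA animals. Its adjusted p of 6.47e-05 was lower without both far animals (4.68e-06). Spin2b, of the spindlin family, was at 7.91 to 9.68 in young, 3.52 to 7.41 in old control and 3.67 to 10.83 in old LA animals. Old LA 3 and old LA 7 were above all young animals, and the other 12 old animals were below them. Fabp1, Hsd11b1, Adam22, Cib2, Slc22a25, Dpp6, Mmd2 and those genes of the 14 that no list holds were chosen after their values were seen.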

How the data were processed

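Liver RNA of 30 rats was measured on 1 array per animal. The deposited values were log2 signals that the authors had made with GCRMA, per the submitters' processing notes. Other upstream steps are not given in the sources used here. Of 31099 probe sets, 20826 had 1 gene in GEO's platform annotation, 436 had several, 9780 had none and 57 were controls. Symbols were updated to RefSeq for 20758. The probe set of highest mean stood for each gene, among those over log2 4 on at least 6 arrays. The precision is limited by the number of arrays.

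Each absolute deviation from the group mean was divided by the square root of 1 minus 1/n, and the deviations were fitted with 1 coefficient per group in limma 3.58.1 (lmFit, eBayes) in R 4.3.3. Contrasts compared 14 old with 16 young animals, each diet, and the diets. The fit was run on simulated data with independent noise in each gene and animal. Those data held no animal that deviates in many genes at once, so the check cannot speak for such animals. Summaries used Python 3.11.15, numpy 2.4.6, pandas 2.3.3, scipy 1.17.1 and matplotlib 3.10.9.

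Members and the 39 gene lists (740 entries, 639 on the array, 553 distinct genes measured) were chosen with earlier results of these data known. Named genes were the 10 largest and smallest ratios among called genes over log2 4 in each group, the 10 largest ratios called in each fit that left out animals, the 10 stable genes, up to 4 members of each list by smallest p, and a set of 12 genes always given, of which Actb, Gapdh and Hba-a1 were not measured as genes. Placeholder symbols were skipped. Alternatives covered centring, the measure of spread, filters, probe sets and left-out animals.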

Additional observations from a re-analysis of the deposited data

Results flagged for a closer look

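In old control, the mean absolute deviation of old control 5 over all genes was 0.747 log2 units, far from the other 7 animals of its group. In old LA, old LA 2 was far from the other 5 animals, at 0.498. Among the 216 genes tested by name, 1 old control animal stood far from the others of its group in 56, and that animal was old control 5 in 50 of them. In old LA this was so for 38 genes, and the animal was old LA 2 in 32. In young control 18 genes had such an animal, most often young control 8, in 5 genes. In young LA 17 genes had one, most often young LA 5, in 4 genes. Chance flags about 1 in 20 groups. These genes were in part chosen for their spread, so the counts describe them and no others.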

How the results depend on the processing

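The difference of per-animal deviation kept its direction and its call in every alternative where it was tested. It ran from 0.0899 (without old control 5) to 0.1475 when 1 animal was left out. It was 0.0614 without both far animals and 0.0460 with the first principal component of the deviations removed. At means between log2 6 and 13 without both far animals it was 0.0457. The number of more variable genes stayed above that of less variable genes in every alternative, old against young. With the group median as the centre the 1607 more variable and 31 less variable genes became 176 and 1. They became 3780 and 57 in the F test of the variance ratio, 679 and 7 among genes with an age difference of means under 1, and 949 more variable without both far animals. The less variable genes numbered 17 at a mean over log2 4 in each group and 89 with no filter. With the first principal component of the deviations removed, 509 were more variable. Alternatives added after seeing the data gave 2 and 0 (group median, without both far animals), 723 and 10 (means between log2 6 and 13) and 441 and 9 (those means, without both far animals). Leaving out 1 animal gave 1045 (old LA 2) to 2037 more and 25 to 44 less variable genes. The median log2 variance ratio of 1.35 became 0.61 without both far animals, 0.51 without the first component, and 0.56 at means between log2 6 and 13 without both, and it ran from 0.89 to 1.45 when 1 animal was left out.

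By diet the counts were unstable. On the control diet the 539 more and 14 less variable genes became 12 and 1 with group medians, 1655 and 36 with log2 deviations, and 2684 and 45 in the F test. The more variable ones were 196 without the first component, and the less variable ones 7 with arrays centred, 8 at means over log2 4, 59 with no filter and 30 without both far animals. On the LA diet the 35 more and 1 less variable became 0 and 0 with group medians, 649 and 27 with log2 deviations, 1146 and 34 in the F test, 124 and 16 with no filter, 62 and 2 over all probe sets, 58 and 7 without both far animals, and 17 and 4 without the first component. The more variable ones were 22 with arrays centred and 19 at means over log2 4. The 0 genes that differed between diets became 1 with arrays centred, 14 with log2 deviations, 7 with no filter, 2 over all probe sets and 6 without both far animals. Among genes with an age difference of means under 1, the counts were 120 and 3 on the control diet, 1 and 0 on the LA diet and 1 for the difference. With limits added after seeing the data, means between log2 6 and 13 gave 106 and 4 on the control and 3 and 1 on the LA diet. Without both far animals these limits gave 293 more variable genes on the control and 13 on the LA diet. Leaving out 1 animal gave 157 to 1148 and 5 to 21 on the control diet, 3 to 548 and 0 to 17 on the LA diet, and 0 to 8 for the difference. On the control diet, leaving out young control 1, 2, 3, 5, 6, 7 or 8, or old control 5, lowered the first count by over 1.5 times (to 157 to 359), and leaving out old control 1, 2 or 8, or old LA 2, raised it (to 958 to 1148). On the LA diet any young LA animal but young LA 7, or old LA 2, lowered it (to 3 to 22), and old control 1 or 5, or any other old LA animal, raised it (to 57 to 548). The less variable control-diet count fell to 5, 6 and 9 without young control 2, old control 5 and old control 7. The causes were not tested.

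With the replicate block, 570 genes were more and 5 less variable, 1 and 0 on the control diet, 4 and 0 on the LA diet, and 0 differed between diets. Over 42 pairs of same-numbered arrays of different groups the correlation of deviations was -0.57 to 0.51 (median 0.064), and 16 were over 0.1. Between young control and young LA it was 0.071 to 0.286, with 7 of 8 over 0.1, and between old control and old LA -0.57 to 0.51, with 1 of 6. Not every pair was over 0.1, so the numbers were not taken as pairs. What same-numbered arrays may have shared was not tested. Of 216 named genes, 171 kept their side of the threshold without both far animals, 41 lost a call and 4 gained one. Other probe sets of the named genes kept the side of the threshold in 35 cases, lost a call in 16 and gained one in 5. In 3 the sign was opposite, for Ablim1 (log2 variance ratio 0.48, limma adjusted p = 0.488), Kdr (-0.40, 0.734) and Per3 (-0.41, 0.825). Probe sets with the same sign and no call included those of Dusp6, Xpo4, Fos, Pdgfrb, Kcnab2 and Fgd2 (2.09, 0.187). Signals near the floor, where spread is compressed, limit the small SDs.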
